A study of Mus musculus with 22 samples.

Results

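The genes described here encode the proteins of the cytosolic ribosome. They were taken from the count table by symbol: Rpl or Rps, a number and at most 1 of the letters a, x, l or y, together with Rplp0, Rplp1, Rplp2 and Rpsa. This rule takes 83 of 55367 gene symbols, 32 of the small (40S) and 51 of the large (60S) subunit, and leaves out 317 pseudogene symbols of the same genes that end in -ps and a number. Gene structures of GENCODE M21 list 80 of the 83 as protein coding. Rpl32l and Rpl6l are processed pseudogenes in it and Rps4l is a transcribed processed pseudogene, although their symbols follow the rule.

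RNA was sequenced from mouse liver cells labelled HSC. That abbreviation commonly stands for hepatic stellate cells, the retinoid-storing pericytes that deposit collagen in fibrosis. The Diet mice ate CDA-HFD, a choline-deficient, amino acid-based high-fat diet that is used to model steatohepatitis, from an age of 8 weeks. The Control mice ate chow. All mice are labelled as 20 weeks old, and no transgene, genotype or strain is given. The length of feeding is labelled as 12 weeks in one place and as 6 months elsewhere. The labelled ages fit 12 weeks and not 6 months, but which label is wrong is not stated. Mice were killed at zeitgeber time (ZT) 0, lights on, ZT6, ZT12, lights off, or ZT18. There were 3 Diet libraries for each time, and 3, 2, 2 and 3 Control libraries in the order of the times. Whether each library came from a different mouse is not labelled, and the spread that the p-values rest on may therefore be partly technical.

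A ribosome carries nearly all of its proteins in equal number, around a core of ribosomal RNA most of which RNA polymerase I transcribes. Growing cells raise the synthesis of all of them together, and Myc and the mTOR kinase are the best known regulators of this in mammals. The mRNAs of ribosomal proteins and of several translation factors begin with a C followed by a run of C and T bases, the 5′ terminal oligopyrimidine (TOP) tract, through which mTOR and LARP1 control their translation and stability. In the liver, translation of these mRNAs is known to follow the feeding rhythm.

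RefSeq start sites (GRCm38.p6) were given for 61 of the 83 genes. The stretches below cover 15 bases before the annotated start and 15 from the start on, 5′ to 3′ on the gene's strand, and capitals mark the run of at least 5 C or T bases nearest the start. They are shown because the presence of the tract can be read against the diet change of the same gene. Rps15a, Rps21 and Rplp2 carry the tract at the start and were higher under diet, Rps10 and Rps6 carry it and were not called, Rps26 has it a few bases further on, and Rps3 has none in the stretch.
Rps15a: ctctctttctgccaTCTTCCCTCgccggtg
Rps21: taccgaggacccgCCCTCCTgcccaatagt
Rplp2: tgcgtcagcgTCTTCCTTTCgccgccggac
Rps10: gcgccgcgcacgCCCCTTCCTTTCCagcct
Rps6: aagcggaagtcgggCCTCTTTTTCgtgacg
Rps26: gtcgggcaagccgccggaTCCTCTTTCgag
Rps3: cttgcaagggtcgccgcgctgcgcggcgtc

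These lie at chr7:118116133-118116162 on the minus strand (Rps15a), chr2:180257364-180257393 on the plus strand (Rps21), chr7:141447636-141447665 on the plus strand (Rplp2), chr17:27635230-27635259 on the minus strand (Rps10), chr4:86857353-86857382 on the minus strand (Rps6), chr10:128626492-128626521 on the minus strand (Rps26) and chr7:99483695-99483724 on the minus strand (Rps3) of GRCm38 (mm10). Searched on the gene's strand alone, a C at the annotated start followed by 4 bases of C or T was present in 14 of the 61 genes (23.0%), against 3.01% of 27025 genes with a RefSeq promoter. Allowing it to begin within 10 bases of the start gave 39 genes (63.9%), against 34.4%. The letters CTTTC, which can lie inside such a run, were in the 30-base stretch of 17 genes (27.9%), against 4.76%. An annotated start may differ from the one these cells use.

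Gene counts per library ran from 19754805 to 41665623, and the filter on low counts kept 22409 genes. Of the 83 ribosomal protein genes 80 passed it. Rpl10l, Rpl32l and Rpl6l did not, at no more than 15, 9 and 5 counts in any library. Under diet, 6161 genes were higher and 5587 lower over all times by edgeR, or 7634 and 4558 when libraries were scaled by their size alone, which moves the median log2 change of all genes to 0.25, against 0.08. The labelled cell type was checked with 16 stellate and fibroblast markers, all detected. They summed to 182 to 564 CPM (counts scaled to a common library size) in Diet libraries and 321 to 1245 CPM in Control libraries, while 16 endothelial markers summed to 1280 to 3034 CPM in Diet libraries and 20316 to 39057 CPM in Control libraries. Every endothelial marker was lower under diet and none was at 0. Of the stellate and fibroblast markers 3 were higher and 6 lower. In Diet libraries T and NK cell markers summed to 3389 to 8431 CPM, B and plasma cell markers to 1657 to 3568 CPM and macrophage markers to 1520 to 4419 CPM. The sums in Control libraries were 615 to 2675, 464 to 942 and 524 to 3401 CPM in the same order. Detection of the stellate markers alone therefore does not settle which cells the RNA came from. Under diet, T and NK cell markers (16 of 16 higher), B and plasma cell markers (12 of 12), macrophage markers (11 of 14), neutrophil and dendritic cell markers (13 of 13), cholangiocyte markers (12 of 12), hepatocyte markers (9 of 13) and cycling-cell markers (11 of 12) were mostly higher. Fewer cells of a type and less RNA per cell cannot be told apart in these bulk libraries, and the part of this shift in the results below was not tested. Control ZT0 replicate 2 and Control ZT18 replicate 1 stood apart from the other Control libraries in earlier results of these data, and values without them are given where they change a count.

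Ribosomal protein genes took a larger share of the counts under diet. They made up 1.13 ± 0.0828% of gene counts in Diet libraries and 0.614 ± 0.0832% in Control libraries (SD, n = 12 and 10), a ratio of 1.83. The Diet libraries spanned 0.982% to 1.21% with a median of 1.15%, and the Control libraries 0.522% to 0.805% with a median of 0.593%, so the groups did not overlap. Counting error is small beside this, since the 95% Wilson interval of each library's share is at most 0.00482 percentage points to either side. In CPM, whose library sizes are scaled with TMM factors, the sum over the 83 genes was 10705 ± 1080 in Diet and 6526 ± 732 in Control libraries, a ratio of 1.64. No p is given for these sums, because the genes were chosen with results known.

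The share was higher under diet at each time. In the Diet groups it was 1.18 ± 0.0406% (ZT0), 1.16 ± 0.0404% (ZT6), 1.17 ± 0.0129% (ZT12) and 0.996 ± 0.0233% (ZT18; SD, n = 3 each). In the Control groups it was 0.651 ± 0.135% (ZT0, n = 3), 0.527 ± 0.00735% (ZT6, n = 2), 0.655 ± 0.0219% (ZT12, n = 2) and 0.609 ± 0.0384% (ZT18, n = 3). The ratio was widest at ZT6 (2.21) and narrowest at ZT18 (1.64). The Control library with the highest share, ZT0 replicate 2 at 0.805%, also had the lowest endothelial sum of all Control libraries (20316 CPM) and the highest T and NK cell sum (2675 CPM). Without it the Control mean is 0.593%.

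**Figure D1:**
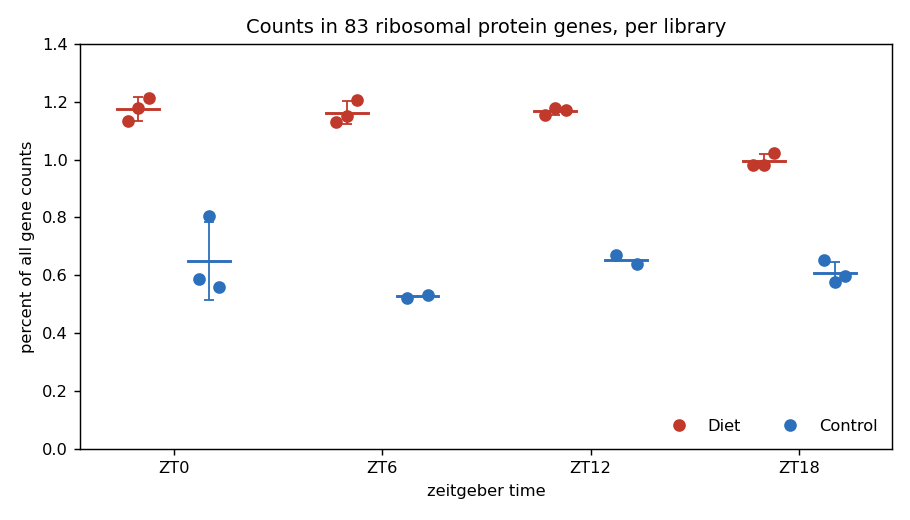
Percent of all gene counts that fall in the 83 ribosomal protein genes (y axis) in each library by zeitgeber time (x axis), Diet in red left of Control in blue. Bars are group means and whiskers SD where a group has 3 libraries; all 12 Diet libraries (0.982% to 1.21%) lie above all 10 Control libraries (0.522% to 0.805%), and Diet ZT18 is the lowest Diet group.

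The increase was spread over both subunits. Over all times 67 of the 80 tested genes were higher under diet and 1 was lower (edgeR quasi-likelihood test, Benjamini-Hochberg adjusted p under 0.05 over all tested genes), where 27.5% of all tested genes were higher and 24.9% lower. The median log2 change of the 80 was 0.70, a 1.63-fold difference, with quartiles of 0.51 and 0.81, and the median over all tested genes was 0.08. The small subunit had 28 of 32 genes higher with a median of 0.71, and the large subunit 39 of 48 with a median of 0.70. In 36 of the 80 genes every Diet library lay above every Control library, which was the case for 7.35% of all tested genes, and in none did every Diet library lie below (9.78% of all tested genes).

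Calls were more frequent among genes with higher levels. All 35 genes with a mean of 50 CPM or more were higher, with a median log2 change of 0.71 and a median SE of 0.059, where 37.1% of all tested genes of that level were higher. At 10 to under 50 CPM 20 of 22 were higher and 1 lower, with a median log2 change of 0.71 and a median SE of 0.087, where 33.2% of all genes of that level were higher. Under 10 CPM 12 of 23 were higher, with a median log2 change of 0.52 and a median SE of 0.16, where 22.5% of all genes of that level were higher.

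The most abundant genes show the size of the difference best. Rpl4, a large-subunit protein whose long loop lines the exit tunnel, had the highest level of all. It had 1254, 1450 and 1605 CPM as the lowest, median and highest Diet library, and 729, 878 and 1114 CPM in Control libraries. The groups did not overlap, and the log2 change was 0.71 ± 0.053 (SE; edgeR adjusted p = 2.9e-10). Rps3, which sits at the mRNA entry of the small subunit and also acts in DNA repair, had 773, 896 and 1003 CPM in Diet libraries and 553, 588 and 691 CPM in Control libraries. Its change was smaller, 0.54 ± 0.047, and again the groups did not overlap. Rplp0, the base of the stalk that recruits elongation factors, had 642, 778 and 871 CPM in Diet libraries and 404, 442 and 548 CPM in Control libraries, a log2 change of 0.76 ± 0.052. Rps9, of the small subunit, had 577, 673 and 746 CPM in Diet libraries and 304, 324 and 434 CPM in Control libraries, a change of 0.96 ± 0.060. Rps14, at the platform of the small subunit, had 443, 598 and 672 CPM in Diet libraries and 300, 336 and 423 CPM in Control libraries, a change of 0.70 ± 0.059. In Rps9 and Rps14 the groups did not overlap either. Rpl8, near the peptidyl transferase centre, was the exception among the highest genes: it had 547, 735 and 848 CPM in Diet libraries and 430, 532 and 623 CPM in Control libraries, which overlap, with a change of 0.44 ± 0.050. These 6 genes held 47.6% of all ribosomal protein counts.

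Rps15a, a small-subunit protein, changed most among genes with more than a few counts. Its Diet libraries had 215, 240 and 227 CPM at ZT0, 201, 200 and 197 CPM at ZT6, 195, 188 and 221 CPM at ZT12, and 122, 119 and 114 CPM at ZT18. Its Control libraries had 76.7, 103 and 66.6 CPM at ZT0, 67.8 and 62.3 CPM at ZT6, 77.9 and 77.8 CPM at ZT12, and 78.3, 62.4 and 66.6 CPM at ZT18. Every Diet library lay above every Control library, and the Diet ZT18 libraries came closest to Control. The fold change over all times was 2.47, or 1.31 ± 0.070 on the log2 scale (edgeR adjusted p = 1.7e-12). The gene lies at chr7:118104372-118116188 on the minus strand, and its TOP tract is the first of the sequences printed above.

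Other large changes were in Rpl39, Rps26, Rpl32, Rpsa and Rpl12. Rpl39, a small protein of the exit tunnel, had 33.8, 46.0 and 52.4 CPM as the lowest, median and highest Diet library and 17.4, 20.7 and 26.5 CPM in Control libraries, a log2 change of 1.07 ± 0.069. Rps26, at the mRNA exit of the small subunit, had 114, 154 and 179 CPM in Diet libraries and 53.5, 74.3 and 98.0 CPM in Control libraries, a change of 1.04 ± 0.072. The groups did not overlap in either gene. Rpl32 had 334, 408 and 448 CPM in Diet libraries and 169, 185 and 266 CPM in Control libraries, a change of 1.00 ± 0.072. Rpsa, which is known both as a small-subunit protein and as a laminin receptor, had 11.7, 17.8 and 23.9 CPM in Diet libraries and 7.29, 8.32 and 12.0 CPM in Control libraries, a change of 1.00 ± 0.10. Rpl12, of the stalk base, had 8.81, 11.2 and 13.2 CPM in Diet libraries and 4.75, 5.57 and 7.17 CPM in Control libraries, a change of 0.98 ± 0.11. Only in Rpsa among these 5 did the ranges overlap, through the lowest Diet library, at ZT18, and Control ZT0 replicate 2.

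**Figure D2:**
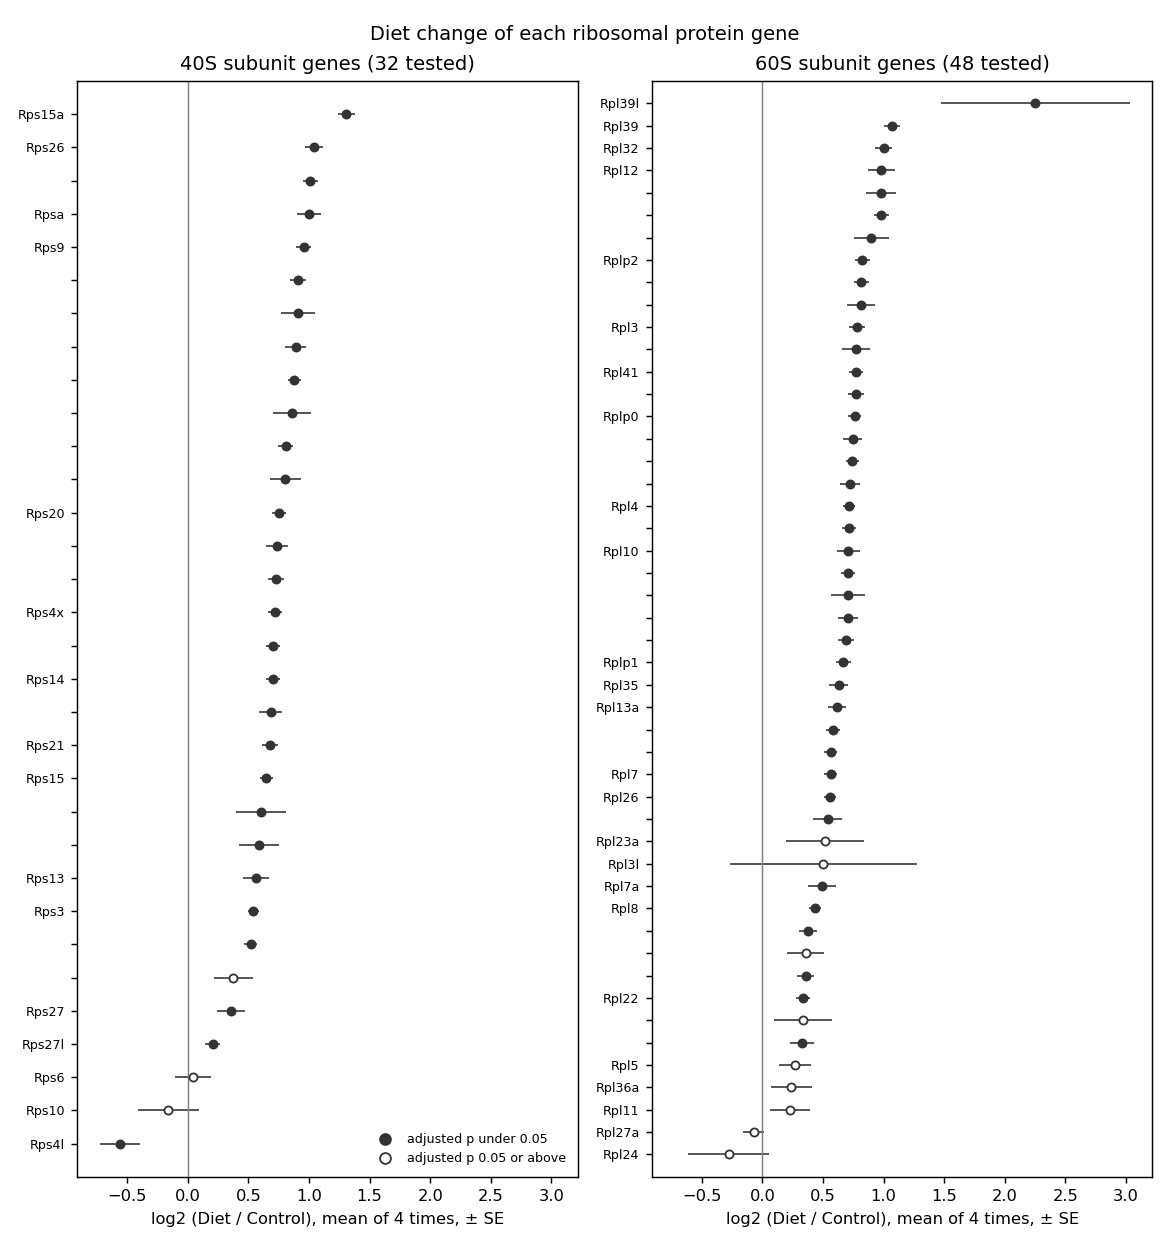
Log2 change of diet over all times ± SE (x axis) of each tested ribosomal protein gene (y axis, labelled where the text names the gene), 32 of the 40S subunit on the left and 48 of the 60S subunit on the right. Filled points have an edgeR adjusted p under 0.05; 67 of them lie right of 0 and only Rps4l (-0.56) lies left of it among the filled points.

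In all 12 genes did not pass the test, 9 of the large subunit, among them Rpl11, Rpl23a, Rpl24, Rpl27a, Rpl36a, Rpl3l and Rpl5, and 3 of the small subunit, among them Rps10 and Rps6. Rpl27a is the only one of these 12 above 10 CPM. It had 16.9, 19.1 and 24.8 CPM as the lowest, median and highest Diet library and 17.7, 19.6 and 24.4 CPM in Control libraries, which overlap almost fully, with a log2 change of -0.07 ± 0.086 (edgeR adjusted p = 0.52). With libraries scaled by size alone it is 0.10, and that of Rps10 also turns positive. The same setting calls Rpl11 (0.40, edgeR adjusted p = 0.049) and Rpl36a (0.42, edgeR adjusted p = 0.040) higher. Rps6, the protein that S6 kinase phosphorylates downstream of mTOR, had 4.19, 6.02 and 7.88 CPM in Diet libraries and 3.97, 5.57 and 7.23 CPM in Control libraries, a change of 0.04 ± 0.15. Rpl11 and Rpl5, which with 5S RNA bind Mdm2 and so link the ribosome to p53, had log2 changes of 0.23 ± 0.16 and 0.27 ± 0.13. A p that misses the threshold does not show that these genes act differently from the rest.

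Many ribosomal protein genes share sequence with other genes. Of the 50-base words of each gene's transcripts, a median of 34.0% also occur in transcripts of other genes in GENCODE M21, 20 genes share 50% or more, and Rpl7a shares words with 120 other genes. Of the 3 genes that share none, Rpl3l and Rpl39l are rarely expressed copies. Rps6 shares 84.6% of its words, Rpl36a 85.5%, Rpl23a 82.6% and Rpl24 81.7%, while Rpl4 shares 16.5% and Rps3 2.82%. How reads that align to several places were counted is not given in the sources used here, and the 284 -ps rows with any count hold reads equal to 0.396% of the ribosomal protein counts.

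Per length of annotated exons, the level of the 79 tested protein-coding genes ran from 0.238 CPM per kb (Rpl3l) to 771 CPM per kb (Rpl4). The median was 60.5 CPM per kb for 18 genes that share under 20% of their words, 26.0 for 41 genes that share 20% to under 50%, and 20.6 for 20 genes that share 50% or more. Spearman's rho between level per length and percent shared was -0.23 over the 79 genes with 50-base words and -0.43 with 100-base words. These are descriptions across genes of the same libraries, and genes are not independent. The order of levels was nearly the same in Diet and Control libraries, with a rho of 0.99 between the group means in CPM. The median log2 change of diet over all times was 0.71, 0.71 and 0.69 in the 3 classes, in the same order, and 17 of 18, 36 of 41 and 14 of 20 genes were called higher. Between that change and percent shared, with 50-base words, Pearson's r was -0.28 and Spearman's rho -0.18 over the 79 genes.

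**Figure D3:**
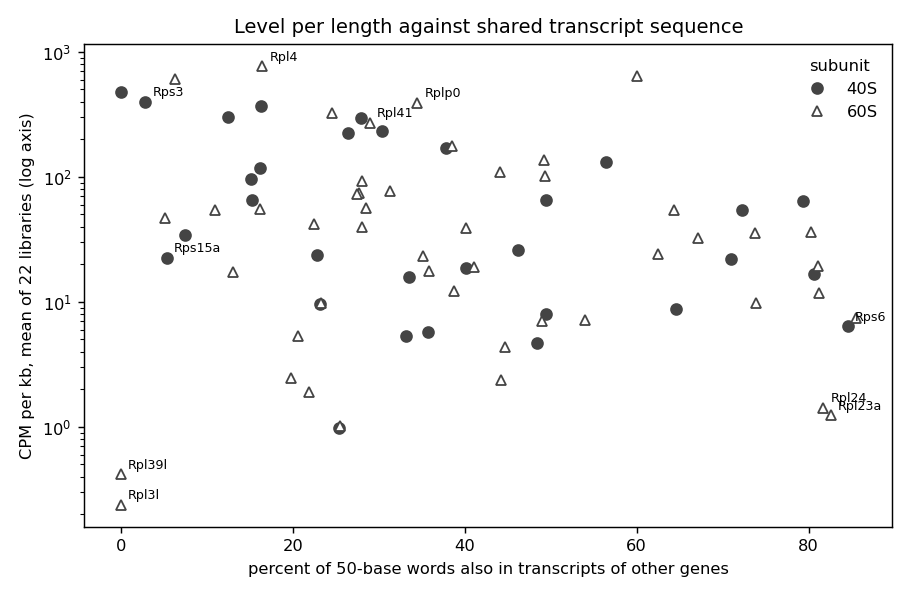
Mean CPM per kb of annotated exons over 22 libraries (y axis, log scale) against the percent of 50-base words also found in transcripts of other genes (x axis), for 79 protein-coding ribosomal protein genes, filled circles for 40S and open triangles for 60S. Rpl4 (771 CPM per kb) and Rps3 stand high at few shared words, Rps6, Rpl24 and Rpl23a stand low at over 80%, and the rarely expressed copies Rpl3l and Rpl39l stand lowest with none.

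Exons of another gene cover at least 10% of the exon bases of 14 ribosomal protein genes. Not all 14 are listed here. The cover is 71.5% for Rpl24 (Gm28037, same strand), 68.3% for Rpl35 (Wdr38, other strand) and 55.4% for Rpl23a (Tlcd1, other strand). It is 53.3% for Rpl13a (Gm45713, same strand), 42.5% for Rpl5 (Fam69a, other strand) and 28.2% for Rps10 (RPS10-NUDT3, same strand). No strand setting of the counting is given, so reads of such pairs cannot be told apart. The values of all 14 genes are therefore uncertain. That holds for Rpl35 and Rpl13a, which were called higher, as for Rpl24, Rpl23a, Rpl5 and Rps10, which were not called.

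The rule also takes copies of some of these genes. Rps4l had the only lower call. Its Diet libraries spanned 21.9 to 40.6 CPM with a median of 31.4, and its Control libraries 21.4 to 82.4 CPM with a median of 42.1, so the ranges overlap widely. Its log2 change was -0.56 ± 0.165 (edgeR adjusted p = 0.0071), and without the ZT6 libraries the call is lost (edgeR adjusted p = 0.071). Its parent Rps4x, the X-linked small-subunit protein, had 50.9, 68.3 and 76.0 CPM as the lowest, median and highest Diet library and 32.8, 38.6 and 54.0 CPM in Control libraries, a change of 0.72 ± 0.061. Rps27l, known in human and mouse cells as a p53 target, had 61.9, 73.4 and 82.9 CPM in Diet libraries and 51.4, 62.7 and 74.3 CPM in Control libraries. Its change of 0.21 ± 0.062 passed the test (adjusted p = 0.0074), but not without the ZT18 libraries (adjusted p = 0.25) or against a 1.2-fold minimum (adjusted p = 0.71). Its parent Rps27 had a change of 0.36 ± 0.12 (adjusted p = 0.014), which was not called against that minimum (adjusted p = 0.15) or without the ZT0 (0.070) or ZT6 libraries (0.18).

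Rpl39l and Rpl3l, known as copies used in testis and in striated muscle, were close to absent. Rpl39l held 0 to 35 counts in Diet libraries and 0 to 7 in Control libraries, 190 counts in all, and 4 of the 22 libraries had none. Its fitted log2 change of 2.25 ± 0.78 (edgeR adjusted p = 0.020) was not called without Diet ZT0 replicate 1 (adjusted p = 0.053), Control ZT6 replicate 1 (0.059) or Control ZT12 replicate 2 (0.056), nor with the replicate block (0.057), and its size depends on the prior count. Rpl3l held 0 to 18 counts in Diet libraries and 0 to 23 in Control libraries and was not called. The parents Rpl39 and Rpl3 were higher, Rpl3 with 59.6, 66.4 and 78.0 CPM in Diet libraries and 34.1, 37.7 and 48.6 CPM in Control libraries.

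At single times the calls ran one way. Of the 80 genes 59 were higher at ZT0 (13.5% of all tested genes) and 60 at ZT6 (14.8%). The counts were 51 for ZT12 (14.3%) and 54 for ZT18 (15.3%). At all 4 times 46 were higher, which held for 6.74% of all tested genes. None was called lower at a single time by edgeR or DESeq2, where 16.5% (ZT0), 15.3% (ZT6), 15.3% (ZT12) and 15.5% (ZT18) of all tested genes were. With an unadjusted p under 0.05 edgeR had 1 lower gene at ZT0 (20.3% of all tested genes) and 1 at ZT6 (18.9%), Rps4l in both cases, and 0 at ZT12 (19.1%) and ZT18 (19.8%). Rps4l is called lower at ZT0 without Control ZT0 replicate 1 (adjusted p = 0.049) or 2 (0.0028), and at ZT6 without Control ZT0 replicate 2 (0.020) or 3 (0.0048). The ZT12 count was 36 without Control ZT12 replicate 2.

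The median log2 change was 0.74 (ZT0), 0.84 (ZT6), 0.59 (ZT12) and 0.55 (ZT18), beside -0.02, 0.08, 0.06 and 0.03 over all tested genes. Rps15a had the largest change at ZT0 (1.47), ZT6 apart from the scarce Rpl39l (1.61) and ZT12 (1.37). Its change at ZT18 was 0.78. Whether the change itself differed between times was tested as the diet by time interaction. No ribosomal protein gene passed (0.959% of all tested genes), 5 had an unadjusted p under 0.05 (14.5% of all tested genes), and DESeq2 called 2. The lowest adjusted p by edgeR was 0.070, for Rps15a, and it was 0.0015 without Control ZT0 replicate 2, when 3 genes passed: Rps15a, Rps13 (0.025) and Rpl10 (0.028).

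**Figure D4:**
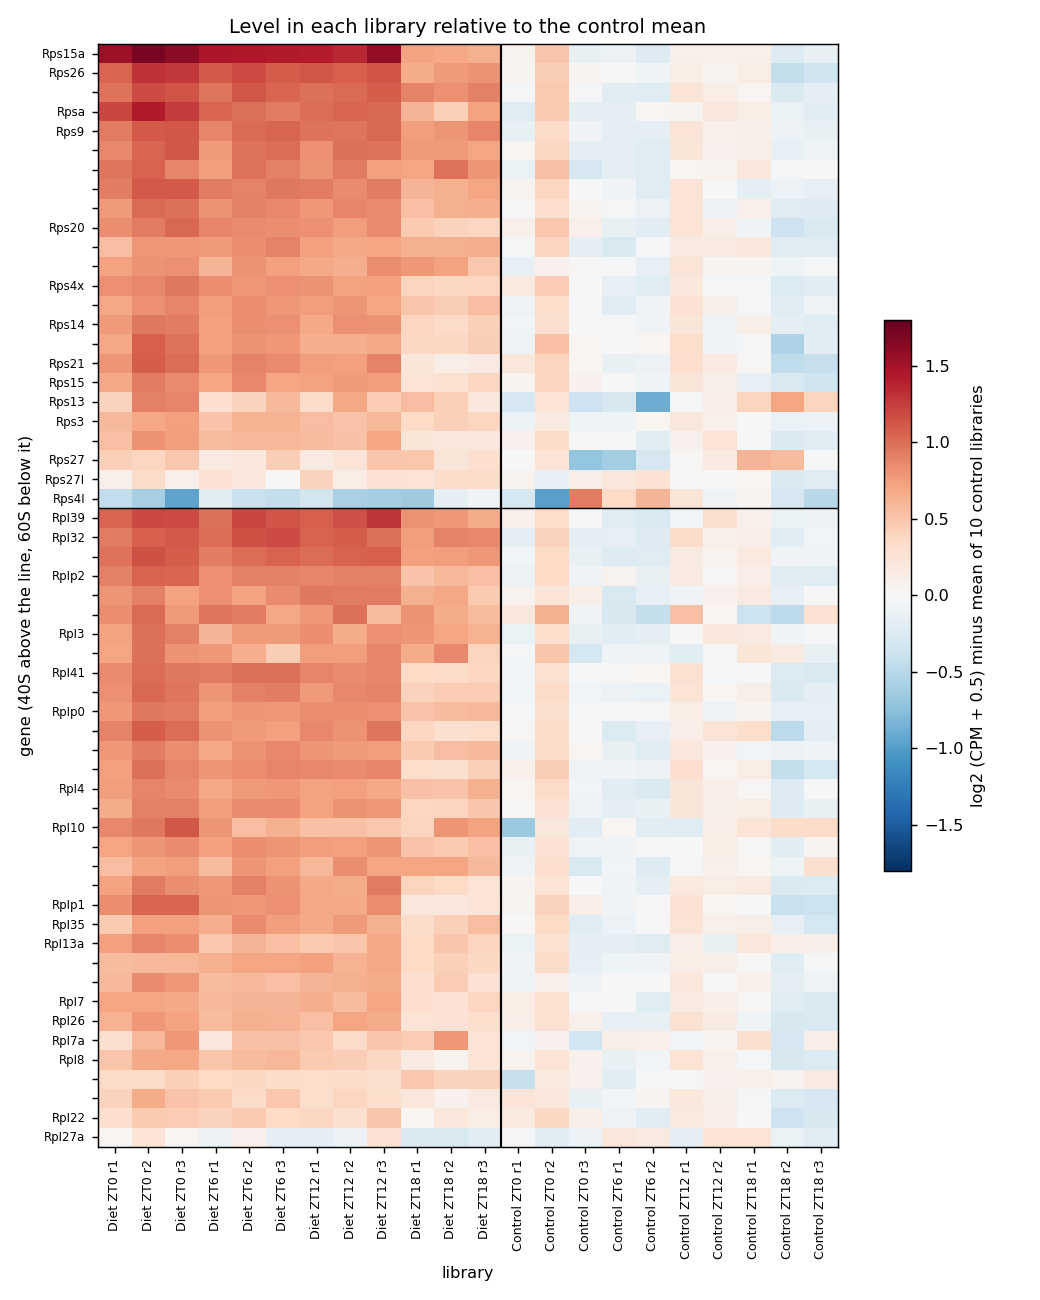
Log2 (CPM + 0.5) of the 57 tested ribosomal protein genes with a mean of 10 CPM or more (rows, 40S above the line and 60S below it, labelled where the text names the gene) in each of 22 libraries (columns, 12 Diet libraries left of 10 Control libraries), relative to the mean of the 10 Control libraries. Diet columns are red in nearly every row, paler at ZT18, Control ZT0 replicate 2 is the reddest Control column, and Rps4l and Rpl27a stand out as rows that are not red under diet.

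Within the Diet group the genes were lowest at ZT18. The mean was lowest at ZT18 in 59 of the 80 genes (26.1% of all tested genes) and highest at ZT0 in 54 (23.6%). In 40 of the 80 all 3 Diet ZT18 libraries lay below the other 9 Diet libraries, which was the case for 2.15% of all tested genes. The choice of ZT18 followed from the values, so this is a description. In the F test over the 4 Diet times 6 genes passed (1.08% of all tested genes), and 34 had an unadjusted p under 0.05 (11.8% of all tested genes).

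The 6 were Rps15a, Rps21, Rplp1, Rpl41, Rps15 and Rpl8, and all had their lowest Diet mean at ZT18. Rps15a averaged 227 ± 12.5, 199 ± 1.65, 201 ± 17.5 and 118 ± 3.71 CPM at ZT0, 6, 12 and 18 under diet (SD, n = 3 each; edgeR adjusted p = 0.0036). Rplp1, of the stalk, averaged 463 ± 38.1, 409 ± 4.41 and 271 ± 3.83 CPM at ZT0, 6 and 18, and its ZT12 libraries spanned 376 to 419 CPM (adjusted p = 0.0086). Rps21 averaged 127 ± 12.9, 116 ± 4.83, 113 ± 6.78 and 72.7 ± 2.32 CPM (adjusted p = 0.0086). Rpl41, whose protein is among the shortest in the cell, had 248 to 277 CPM at ZT0 and averaged 270 ± 5.95, 252 ± 2.82 and 177 ± 3.27 CPM at ZT6, 12 and 18 (adjusted p = 0.012). In these 4 genes all Diet ZT18 libraries lay below the other Diet libraries. The call is lost for Rpl41 without any single Diet ZT18 library (adjusted p of 0.068, 0.075 and 0.058), for Rps21 without replicate 2 or 3 (0.058 and 0.052) and for Rplp1 without replicate 2 (0.051). Rps15 and Rpl8 had adjusted p-values of 0.038 and 0.044. Their Diet means were 186 and 707 CPM at ZT12 and 137 and 585 CPM at ZT18.

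In the Control group the low point was divided between ZT6 and ZT18. Control means were lowest at ZT6 in 39 of the 80 genes (28.1% of all tested genes) and at ZT18 in 33 (28.7%). Of the genes called over Diet times, Rplp1, Rps21, Rpl41, Rps15 and Rpl8 also had their lowest Control mean at ZT18, and Rps15a had it at ZT6. As given above, no ribosomal protein gene passed the diet by time interaction by edgeR, and DESeq2 called 2. All Control ZT6 libraries lay below the other Control libraries in 7 genes (3.61% of all tested genes), and all Control ZT18 libraries in 1 (3.03%). In the F test over the 4 Control times 6 genes passed (5.74% of all tested genes): Rpl26, Rps20, Rps13, Rpl22, Rps15 and Rps21. Rpl26 averaged 69.2, 56.0, 71.5 and 53.2 CPM at ZT0, 6, 12 and 18 in Control libraries (adjusted p = 0.022). Rps20 averaged 107, 81.5, 104 and 77.2 CPM (adjusted p = 0.022), and Rpl22, a large-subunit protein with a role in lymphocyte development in mice, 98.7, 76.3, 94.0 and 72.7 CPM (adjusted p = 0.037). These 3 were lower at ZT6 and ZT18 than at ZT0 and ZT12. Rps13 instead had its highest Control mean at ZT18, with 15.9 CPM at ZT0, 11.6 CPM at ZT6, 17.1 and 18.9 CPM in the ZT12 libraries and 24.9 CPM at ZT18 (adjusted p = 0.024). A share of 6 in 80 is near the background of the Control test, so it is no result about these genes.

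The time calls rest on few libraries. With all ZT18 libraries left out no ribosomal protein gene passed in either group. Without Diet ZT18 replicate 2 the Diet count was 1, without replicate 1 it was 3 and without replicate 3 it was 2. Without Control ZT0 replicate 2 it was 17 and without Control ZT0 replicate 3 it was 11, and DESeq2 called 26. The Control count was 0 without Control ZT18 replicate 2, 1 without Control ZT18 replicate 3, 2 without Control ZT12 replicate 1 or Control ZT6 replicate 2, and 12 without Control ZT0 replicate 3.

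Other values moved with the Diet ZT18 group. Genes encoded by mitochondria took 7.55% (ZT0), 3.81% (ZT6), 5.82% (ZT12) and 8.84% (ZT18) of counts in Diet libraries. Of 13 listed genes of this kind 5 had no count in any Diet library, mt-Co2 and mt-Co3 among them, so this share is incomplete. As a share of the counts outside mitochondrially encoded genes, ribosomal protein genes still held 1.08% to 1.10% in Diet ZT18 libraries. That was below the 1.18% to 1.30% of the other Diet libraries. The T and NK cell sum averaged 7994, 5609, 5892 and 3963 CPM at ZT0, 6, 12 and 18 under diet, and the immediate early gene sum 9003, 11434, 9100 and 14789 CPM. The part of these in the lower ZT18 level was not tested.

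**Figure D5:**
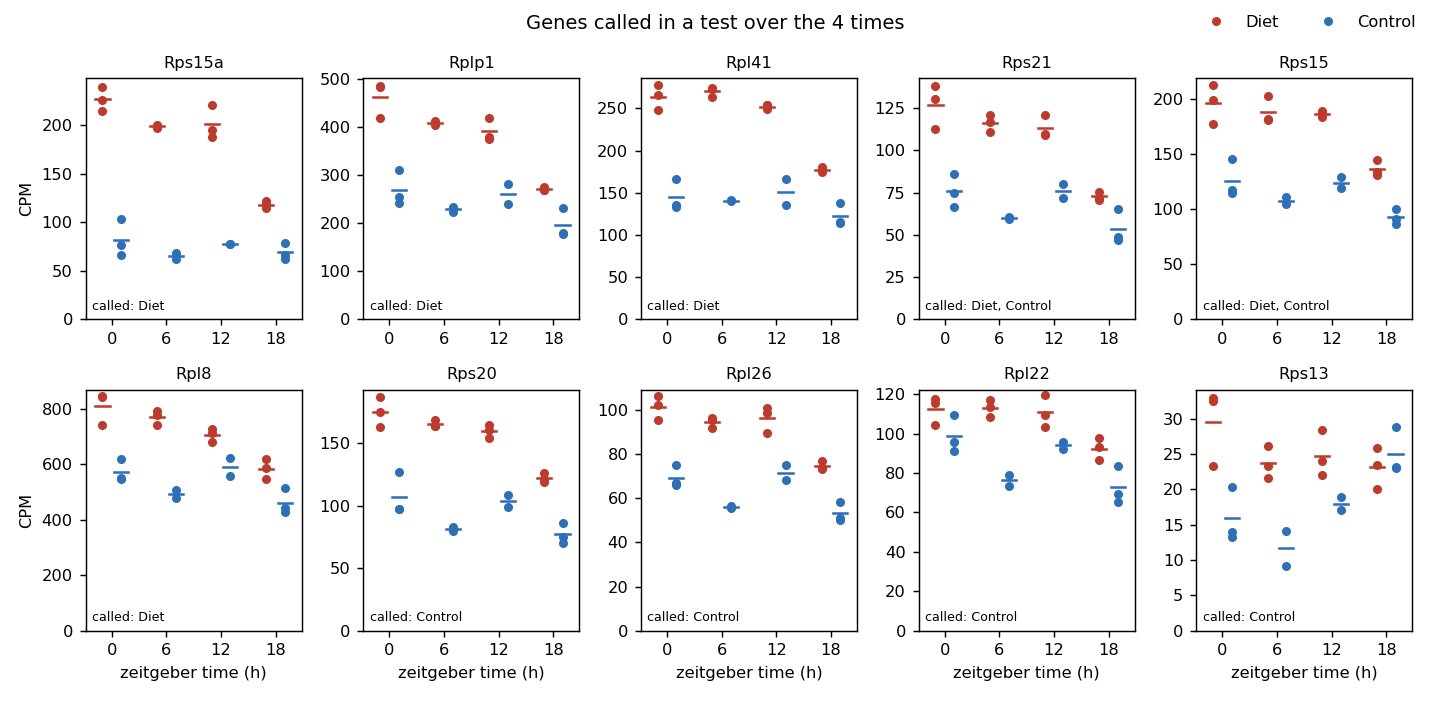
CPM (y axis) by zeitgeber time in hours (x axis) of the 10 ribosomal protein genes that passed the F test over the 4 times in Diet or in Control libraries, as written in each panel, with Diet in red left of Control in blue; points are libraries and bars group means. The Diet points at ZT18 lie low in Rps15a, Rplp1, Rpl41 and Rps21, while the Control means of Rps20, Rpl26 and Rpl22 are low at both ZT6 and ZT18 and Rps13 is high at ZT18.

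Genes with and without the start-site tract were set side by side, and the difference between them was not tested. The median log2 change over all times was 0.68 in 13 tested genes with a C and 4 C or T bases at the annotated start and 0.71 in 46 without. It was 0.70 in 17 genes with CTTTC in the stretch and 0.71 in 42 without. Of the 13 genes 10 were called higher, and of the 46 genes 39.

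Ribosomal proteins whose symbols fall outside the rule mostly followed. Rack1, the scaffold at the head of the small subunit, had 424 ± 46.3 CPM in Diet and 258 ± 36.7 CPM in Control libraries, a log2 change of 0.72 ± 0.059. Rps3a1 had 109 ± 9.34 CPM in Diet and 61.1 ± 8.81 CPM in Control libraries, a change of 0.83 ± 0.069. Fau, whose product is a ubiquitin-like fusion with a small-subunit protein, changed by 0.70 ± 0.088. The copies Rpl36al (0.90 ± 0.083) and Rpl22l1 (0.69 ± 0.073) were higher, and Rpl7l1, a relative of Rpl7, was lower (-0.16 ± 0.062). In all 5 of 10 tested genes of this list were higher and 1 lower, where 27.5% of all tested genes were higher and 24.9% lower.

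Other lists of translation and ribosome-making genes differed in how evenly they moved. Over all times 27.5% of all tested genes were higher and 24.9% lower, which is the background of each list below. These lists overlap, so some genes are counted in more than 1 of them. In the TOP list, Rack1 is also in the list above, Npm1 among the biogenesis factors, Eef1b2 among the elongation factors and Eif3f among the initiation factors. Of 22 other genes known for TOP mRNAs 19 were higher and none lower over all times by edgeR, with a median log2 change of 0.59. Among them Npm1, a nucleolar chaperone, had 92.0 ± 6.09 CPM in Diet and 47.5 ± 6.16 CPM in Control libraries, and Eef1b2, an exchange factor of elongation, 280 ± 31.7 CPM in Diet and 166 ± 19.1 CPM in Control libraries. Of 70 tested ribosome biogenesis factors 51 were higher and 2 lower, with a median of 0.40. Nmd3, the export adaptor of the large subunit, changed by 1.25 ± 0.077, and Imp3, of the small-subunit processome, fell by 0.74 on the log2 scale. Of 15 tested genes of the RNA polymerase I machinery 10 were higher and none lower, among them Ubtf, the factor that opens rRNA genes (0.61 ± 0.058).

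Translation factors were mixed. Of 38 initiation factor genes 16 were higher and 8 lower, with a median log2 change of 0.10, and of 12 elongation and termination factor genes 8 were higher and 2 lower, with a median of 0.31. Eef1a1, which brings aminoacyl-tRNA to the ribosome, had 1394 ± 85.4 CPM in Diet and 925 ± 113 CPM in Control libraries. Eif4h, a helper of the initiation helicase, was lower under diet (-0.43 ± 0.048). The 78 mitochondrial ribosomal protein genes had 30 higher and 14 lower, with a median of 0.12, near that of all genes. Mitochondrial and cytosolic ribosomal proteins thus stood at different median changes, 0.12 and 0.70, a difference that was not tested.

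Regulators of ribosome synthesis were more often lower than higher, with 4 of 20 genes higher and 9 lower and a median of -0.17. Of all tested genes 27.5% were higher and 24.9% lower. The 4 regulators given next had the smallest p of this list and do not stand for the rest of it. Myc, a transcription factor that drives ribosomal protein and rRNA synthesis, had 122 ± 42.5 CPM in Diet and 31.7 ± 12.8 CPM in Control libraries, a log2 change of 1.99 ± 0.15 (edgeR adjusted p = 4.3e-10). Its Diet libraries spanned 68.0 to 212 CPM and its Control libraries 17.2 to 56.2 CPM, without overlap. Tsc2, an inhibitor of mTOR complex 1, was lower at 88.7 ± 9.07 CPM in Diet and 152 ± 21.6 CPM in Control libraries. Eif4ebp1, a repressor of cap-dependent translation that mTOR switches off, was lower at 37.0 ± 5.76 CPM in Diet and 91.0 ± 17.2 CPM in Control libraries, and Akt1s1, an inhibitor in the mTOR complex, at 14.3 ± 2.34 and 36.2 ± 7.83 CPM in Diet and Control libraries. Of 19 tested genes of ribosome stress, rescue and small nucleolar RNA hosts 9 were higher and 4 lower. The TOP host transcript Gas5 had 123 ± 13.9 CPM in Diet and 80.7 ± 20.6 CPM in Control libraries.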

How the data were processed

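The authors deposited whole-number read counts per gene symbol. Per the submitters' processing notes they come from STAR 2.7.9a, HTSeq and DESeq2 on GRCm38 (mm10). A second deposited table holds a normalised signal: every value (100%, tolerance 0.001) is a whole read of the first table over one size factor for its library. These recovered reads equal the counts of the first table in 100% of values. EdgeR on them therefore repeats the main fit, with 11748 genes called over all times, and is no separate check. Extraction used a Promega kit, per the labels' protocols. The sources used here do not say how strand or multiply aligned reads were handled, nor how cells were isolated.

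Testing used edgeR 4.0.16 with limma 3.58.1 in R 4.3.3: filterByExpr, TMM, and glmQLFit with a mean for each of 8 groups. All 22 libraries entered 1 fit because some Control groups hold only 2. The diet contrasts were taken at each time and averaged over the 4 times, and F tests covered times within a group and the interaction. P-values were adjusted over 22409 genes, with a threshold of 0.05. SE is the size of the log2 change over the square root of F. The fit was tested on simulated counts. Wilson intervals cover counting error only. Genes, lists and the rule for named genes (highest, lowest, most and least changed, smallest p, copies with parents, and up to 4 genes a list) were chosen with earlier results of these data known. Shared words and overlaps come from GENCODE M21 and start sites from RefSeq.

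Replicate numbers do not pair the libraries: deviations of same-numbered libraries had a median correlation of -0.0046 over 71 pairs. No replicates matched within sampling noise, the chi-square over its degrees of freedom being 17.5 or higher. Alternatives were RLE, library size only, TMM without these genes, no filter, a CPM minimum of 5, DESeq2 1.42.0, a replicate block, only the groups compared, 24 h cosine terms, pseudogene reads added, and single libraries left out. Recovered reads, whole times left out, a 1.2-fold minimum, and shares outside mitochondrial genes or without both outlying Control libraries were added after seeing the data.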

Additional observations from a re-analysis of the deposited data

Results flagged for a closer look

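In 43 named quantities the highest or lowest of the 10 Control libraries was set against the others by Dixon's ratio at its 95% critical value, and 6 had a library that stood apart. Chance alone would flag about 1 in 20 if the 10 libraries were 1 group. They come from 4 times, and the summed share contains genes that were also set against this ratio, so that rate is only a rough guide. The share of counts in ribosomal protein genes was 0.805% in Control ZT0 replicate 2, above 0.522% to 0.670% in the other 9. Rps15a stood at 103 CPM in the same library, above 62.3 to 78.3 CPM. Rpl10l was at 0.718 CPM there, or 15 counts, against 0 to 0.223 CPM in the others. Rpl3l was at 1.196 CPM in Control ZT6 replicate 1, against 0 to 0.458 CPM. Rpl23a was at 0.146 CPM in Control ZT18 replicate 2, below 0.483 to 0.725 CPM, and Rpl36a at 1.74 CPM in Control ZT18 replicate 3, below 2.92 to 4.05 CPM. Rpl10l, Rpl3l and Rpl23a rest on at most 28 counts in any Control library. The causes were not tested.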

How the results depend on the processing

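The counts of genes higher under diet kept within 1.5 times of their value under each alternative run: 62 to 72 over all times, and with single libraries left out 66 to 68 over all times, 52 to 59 at ZT0, 51 to 61 at ZT6, 36 to 52 at ZT12 and 45 to 55 at ZT18. Lower calls with single libraries left out were 1 over all times, 0 to 1 at ZT0 and ZT6, and 0 at ZT12 and ZT18. Without a filter on low counts 2 genes were lower over all times and 1 each at ZT0, ZT6 and ZT12. None was lower over all times without the ZT6 libraries. There was 1 at ZT0 and ZT6 without both outlying Control libraries, and 1 at ZT6 and ZT12 with only the groups compared. With the replicate block 66 genes were higher and 1 lower over all times, 57, 59, 49 and 51 were higher at ZT0, ZT6, ZT12 and ZT18, and 4, 3 and 0 passed over Diet times, Control times and in the interaction. Since the numbers do not pair the libraries, the block is not read further.

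The tests over time moved most. Diet times gave 16 genes at a mean CPM of at least 5, 22 with only the groups compared, 0 with 24 h cosine terms, 22 without both outlying Control libraries, 10 without ZT12, 0 without ZT18 and 26 by DESeq2. With single libraries left out they gave 1 to 17. Control times gave 2 with library size only, 2 without a filter, 3 with the replicate block, 0 with only the groups compared, 1 with cosine terms, 12 without both outlying Control libraries, 3 without ZT6, 3 without ZT12, 0 without ZT18 and 16 by DESeq2, and 0 to 12 with single libraries left out. The interaction gave 2 without a filter, 1 at a mean CPM of at least 5, 3 without both outlying Control libraries, 1 without ZT0 and 2 by DESeq2, and 0 to 3 with single libraries left out. The share of counts was 1.12% to 1.14% for Diet and 0.593% to 0.624% for Control with single libraries left out.

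Log2 changes that turned sign were not called. With single libraries left out Rpl24 ran from -0.58 to 0.19 at ZT0 (0.19 also without both outlying Control libraries) and from -1.07 to 0.30 at ZT12, Rpl3l over all times from -0.189 to 2.25, and Rps13 at ZT18 from -0.20 to 0.0036. With library size only Rpl27a was 0.10 over all times and 0.022 at ZT6, Rps10 0.012 over all times and Rps13 0.0070 at ZT18. With pseudogene reads added Rps10 was 0.27 over all times, 0.12 at ZT0 and 0.16 at ZT12, and it was 0.028 over all times without ZT12. Rps6 was -0.061 without ZT0 and -0.079 without ZT18. Of the values of single named genes 2580 kept direction and side of the threshold, 65 lost the call and 34 gained it. Those that kept both include the run on recovered reads, which could not differ from the main fit. The causes of the changes were not tested. Precision was lowest under 10 CPM, with a median SE of 0.16 on the log2 scale, and 11 of 23 genes there were not called higher.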
